A study of Mus musculus with 4 samples.

Results

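The genes described here are 8 regulators of G protein signalling (RGS), *Rgs1*, *Rgs2*, *Rgs3*, *Rgs10*, *Rgs14*, *Rgs16*, *Rgs18* and *Rgs19*, among 24537 genes measured in group 2 innate lymphoid cells (ILC2s) from bronchoalveolar lavage (BAL) fluid. They were found by gene symbol and were selected with their values in these same libraries known, so their levels are given as a description and without a test. The files hold 21 genes named Rgs and a number, and the 13 others serve as the rest of the family. The RNA-Seq libraries came in pairs, 2 after IL-33 treatment and 2 after chronic exposure to house dust mite (HDM) extract. IL-33 is an alarmin, released by damaged epithelium, whose receptor ILC2s carry. The comparison sets acute against chronic airway inflammation.

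IL-33 was given in 3 doses of 0.5 µg, whereas HDM was given at 25 µg per dose, 3 times a week for 5 weeks, and cells were taken 1 day after the last challenge in both models. All mice were GATIR mice, stated to be 8 to 16 weeks old, which carry a yellow fluorescent protein (YFP) reporter in *Gata3*, and ILC2s were sorted as negative for lineage markers and positive for Sca-1 and YFP. Each library is therefore a sorted population, and its purity depends on that gate. According to the sample labels the IL-33 mice were homozygous (Gata3-YFP/YFP) with CD25High cells and the HDM mice heterozygous (Gata3-YFP/WT) with CD25Low cells, while the methods name homozygous mice alone and no sort on CD25. Stimulus, duration, reporter genotype and CD25 class therefore cannot be told apart. The number of mice behind each library, and whether each pair was drawn from different mice, are not given in the sources used here, so a p-value reflects the spread between libraries alone, and that spread may be technical.

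Reads in genes numbered 10696041 to 12054781 per IL-33 library and 15650723 to 16092268 per chronic HDM library. Reads of 45S ribosomal RNA took 3.45% to 4.95% of these after IL-33 and 17.4% to 25.4% after chronic HDM. The chronic HDM pair was the less alike of the pairs, with an SD of the log2 difference between libraries, across 9523 genes, of 1.13 against 0.434 for the IL-33 pair. All 13 ILC2 markers examined were detected in the tested range, and their summed level, most of it *Id2* and *Ly6a* with *Il5* and *Klrg1*, was 3907 and 3960 RPKM (IL-33 libraries) and 3485 and 3306 RPKM (chronic HDM libraries). Of these markers 7 had an unadjusted p under 0.05 with limma. Called were 3, where 3.34% of all genes tested were, and 1 with limma-voom. *Gata3*, the gene that carries the YFP reporter of the sort, was at 16.9 ± 2.83 RPKM after IL-33 and 206 ± 15.2 RPKM after chronic HDM (SD, n = 2 each; limma, adjusted p = 0.00665), *Il1rl1* was 2.68-fold higher after chronic HDM (adjusted p = 0.00994) and *Il5* 4.62-fold higher after IL-33 (adjusted p = 0.00665). Levels are given as RPKM, in which reads are divided by exon length and library size, so genes of different length can be compared.

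RGS proteins bind activated Gα subunits of heterotrimeric G proteins and speed up their hydrolysis of GTP, which shortens the signal from G protein-coupled receptors, among them the chemokine receptors that steer lymphocytes. The family is divided by sequence: R4 proteins are little more than an RGS domain with a short amphipathic helix, R12 proteins can carry further domains, and RZ proteins have a cysteine string that is palmitoylated. Several R4 genes are induced quickly by activating signals in lymphocytes, and *Rgs1* is known to restrain chemokine-driven migration of B and T cells.

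The promoters are shown as a description of sequence, and nothing on the difference between the groups is read from them. RefSeq sequence (GRCm38.p6, the build of mm10) matched 5 of the 8 genes, and *Rgs1*, *Rgs14* and *Rgs18* had no match. The 100 bases before the start of each are printed 5′ to 3′, in the direction of the gene, with every GC box (GGGCGG or its reverse complement CCGCCC) in capitals.
Rgs2, chr1:144004150-144004249, minus strand: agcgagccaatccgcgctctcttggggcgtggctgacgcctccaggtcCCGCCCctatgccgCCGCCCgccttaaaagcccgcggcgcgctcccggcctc
Rgs3, chr4:62619572-62619671, plus strand: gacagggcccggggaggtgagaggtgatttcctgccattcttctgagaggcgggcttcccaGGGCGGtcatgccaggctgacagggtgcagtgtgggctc
Rgs10, chr7:128418173-128418272, minus strand: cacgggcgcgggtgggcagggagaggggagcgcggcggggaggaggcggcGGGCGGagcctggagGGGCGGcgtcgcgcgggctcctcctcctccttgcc
Rgs16, chr1:153740253-153740352, plus strand: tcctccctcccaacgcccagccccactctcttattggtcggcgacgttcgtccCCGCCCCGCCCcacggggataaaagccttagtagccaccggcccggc
Rgs19, chr2:181693978-181694077, minus strand: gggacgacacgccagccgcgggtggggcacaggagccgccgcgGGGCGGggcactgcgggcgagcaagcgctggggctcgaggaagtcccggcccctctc
All 5 windows held a GC box, a sequence bound by Sp1 family factors. Over 300 bases, from 250 before to 50 after the start, *Rgs2* had 4 matches, *Rgs10* and *Rgs16* 2 each, and *Rgs3* and *Rgs19* 1 each, and 35.7% of the 32851 promoters of that length had at least 1. The matches in *Rgs16* overlap each other. The windows of *Rgs2*, *Rgs10*, *Rgs16* and *Rgs19* had 22 to 34 CpG dinucleotides against a median of 7 over all promoters, and that of *Rgs3* had 9. The promoter of *Rgs3* was thus the closest of the 5 to the typical one.

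Motifs of inducible factors and the TATA box were searched in the same 300 bases on both strands. With 5 promoters, no count is read as few or many against the shares over all promoters. The cAMP response element TGACGTCA was in none of the 5, as in most promoters (1.79% hold it), and its half-site TGACGT occurred only in *Rgs2* of the 5, 186 bases before the start (7.51% of promoters). The AP-1 site TGANTCA and the E-box CACGTG were in none of them (7.81% and 7.15% of promoters). The GATA motif AGATAA and the TATA box TATAAA were each found once, in *Rgs3*, 124 and 177 bases before the start (11.2% and 13.6% of promoters). The short cores GGAAA and GGAAG, which are parts of NFAT and ETS sites, were in *Rgs3* and *Rgs19* and in *Rgs2*, *Rgs3*, *Rgs16* and *Rgs19*, respectively, and are common (61.3% and 71.4% of promoters). A match of letters is not a bound site, and the absence of one says nothing of a factor.

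In both libraries of each pair, 7 of the 8 genes were higher after chronic HDM than after IL-33, and *Rgs19* alone was higher after IL-33 on the deposited scale, a direction that turned under quantile normalization. Of all 9523 genes tested, 23.5% had both libraries higher after chronic HDM and 41.7% had both higher after IL-33. The median log2 difference (IL-33 minus chronic HDM, on log2(RPKM + 1)) was -1.71 over the 8 genes and 0.28 over all genes tested. Since the genes were chosen on this contrast, nothing is read from these counts.

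**Figure D1:**
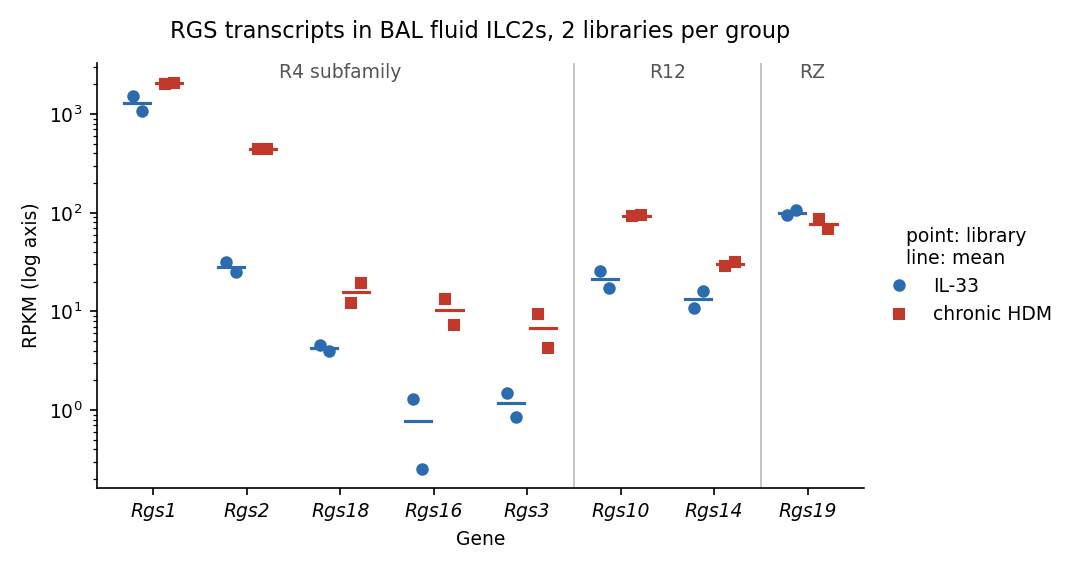
Level of each RGS gene in RPKM (log axis) in the 2 IL-33 libraries (circles) and the 2 chronic HDM libraries (squares), with lines at the means and genes grouped by subfamily. *Rgs2* lies at 24.96 and 31.9 RPKM after IL-33 against 438 and 448 RPKM, and *Rgs19* is the gene whose IL-33 libraries lie above, a direction that turned under quantile normalization.

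*Rgs1*, an R4 gene at chr1:144244669-144249104 on the minus strand (mm10, 5 exons), was the dominant RGS transcript in every library. It measured 1509.9 and 1079.9 RPKM in the IL-33 libraries and 2024.5 and 2088 RPKM in those of chronic HDM, which are 1295 ± 304 and 2056 ± 44.9 RPKM (SD, n = 2 each). The groups did not overlap, but the step of 1.59-fold (log2 difference -0.69, SE 0.18) was small beside those of the other R4 genes. Among all genes *Rgs1* ranked 15th and 22nd by RPKM in the IL-33 libraries and 9th and 10th in the chronic HDM libraries. Its level was thus among the highest of any gene in both models.

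*Rgs2*, an R4 gene at chr1:143999338-144004149 on the minus strand (5 exons), encodes a protein with a preference for Gαq and had the largest difference of the 8 on the log2(RPKM + 1) scale. With limma-voom on recovered reads it was at -3.97 and *Rgs16* at -4.02. It was at 31.9 and 24.96 RPKM in the IL-33 libraries (1255 and 880 reads) and at 448 and 438 RPKM in the chronic HDM libraries (25829 and 24203 reads). The means were 28.4 ± 4.92 and 443 ± 6.57 RPKM (SD, n = 2 each), 15.6-fold apart with a log2 difference of -3.92 (SE 0.21). Libraries of a group lay close together, within 1.28-fold after IL-33 and 1.02-fold after chronic HDM. Its rank among all genes went from 2864th and 3448th to 74th and 76th. In the fit over all genes (limma, with calls made where adjusted p was under 0.01 and the log2 difference beyond 1), 0.536% of genes were called higher after chronic HDM and 2.8% higher after IL-33, and no gene was called when either IL-33 library was left out. Of the 8 genes *Rgs2* was past these thresholds, which is no test of it, since it was chosen on this contrast.

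The remaining R4 genes were expressed at lower levels. *Rgs18*, at chr1:144752841-144775421 on the minus strand (5 exons) and best known from platelets and their precursors, was at 4.54 and 3.95 RPKM (IL-33 libraries) and 12.2 and 19.4 RPKM (chronic HDM libraries). The means of 4.24 ± 0.411 and 15.8 ± 5.08 RPKM (SD, n = 2 each) differed 3.72-fold (log2 difference -1.65, SE 0.40). Of 6 platelet and megakaryocyte markers 4 were at 0 in all libraries, *Ppbp*, *Itga2b*, *Gp9* and *Tubb1*, and the summed level of the list was at most 1.57 RPKM.

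*Rgs16*, at chr1:153740353-153745468 on the plus strand (5 exons), is an R4 gene that acts on Gαi and Gαq and is induced in activated lymphocytes. It was close to absent after IL-33, with 1.31 and 0.256 RPKM from 40 and 7 reads, and reached 13.5 and 7.31 RPKM after chronic HDM from 604 and 313 reads. The means were 0.784 ± 0.747 and 10.4 ± 4.37 RPKM (SD, n = 2 each), a 13.3-fold difference in RPKM. On the log2(RPKM + 1) scale, which understates changes of low genes, the difference was -2.69 (SE 0.57). Of the exon length, 10.1% (236 bases) is shared with the antisense gene *Gm28513* in GENCODE M21, and the counting command names no strand, so reads of the pair cannot be separated there.

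*Rgs3*, at chr4:62619672-62659847 on the plus strand (11 exons in the transcript counted), was the other low R4 gene. It was at 1.49 and 0.854 RPKM (IL-33 libraries) and 9.35 and 4.28 RPKM (chronic HDM libraries). Its means of 1.17 ± 0.452 and 6.82 ± 3.59 RPKM (SD, n = 2 each) were 5.81-fold apart (log2 difference -1.78, SE 0.56), and its chronic HDM libraries differed 2.19-fold from each other. *Rgs3* and *Rgs16* were the genes least alike between the chronic HDM libraries, with replicate 1 the higher for both.

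Of the R12 genes, *Rgs10* encodes a small protein that acts on Gαi and is abundant in immune cells, and it lies at chr7:128373625-128418172 on the minus strand (5 exons). It was at 25.9 and 17.3 RPKM (IL-33 libraries) and 93.7 and 93.9 RPKM (chronic HDM libraries). The means were 21.6 ± 6.08 and 93.8 ± 0.151 RPKM (SD, n = 2 each), 4.35-fold apart (log2 difference -2.10, SE 0.28). Its chronic HDM libraries were nearly equal.

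*Rgs14*, at chr13:55369732-55384687 on the plus strand (15 exons), encodes a larger R12 protein with Ras-binding domains and a GoLoco motif that holds Gαi in its GDP-bound state. It was at 10.8 and 16.2 RPKM (IL-33 libraries) and 28.6 and 31.6 RPKM (chronic HDM libraries), with means of 13.5 ± 3.84 and 30.1 ± 2.08 RPKM (SD, n = 2 each). The groups were apart by 2.23-fold (log2 difference -1.12, SE 0.32), with no overlap.

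*Rgs19*, also called GAIP, is the RZ gene of the set, at chr2:181688419-181693977 on the minus strand (5 exons), and its product acts on Gαi. It was at 94.2 and 106 RPKM (IL-33 libraries) and 86.2 and 67.9 RPKM (chronic HDM libraries). The means of 99.98 ± 8.11 and 77.0 ± 13.0 RPKM (SD, n = 2 each) were 1.30-fold apart (log2 difference 0.38, SE 0.22). With quantile normalization the sign turned, to -0.17, so no direction is given for this gene.

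The order of the genes changed between the models. After IL-33 the order of mean RPKM was *Rgs1*, *Rgs19*, *Rgs2*, *Rgs10*, *Rgs14*, *Rgs18*, *Rgs3* and *Rgs16*, where *Rgs2* and *Rgs10*, and *Rgs3* and *Rgs16*, overlapped between libraries. After chronic HDM it was *Rgs1*, *Rgs2*, *Rgs10*, *Rgs19*, *Rgs14*, *Rgs18*, *Rgs16* and *Rgs3*, and *Rgs16* overlapped with both *Rgs18* and *Rgs3*. *Rgs2* was 2.11% and 2.31% of the level of *Rgs1* in the IL-33 libraries against 22.1% and 21.0% in those of chronic HDM. Likewise *Rgs10* went from 27.4% and 16.3% of the level of *Rgs19* to 109% and 138%. These ratios are taken within a library, so scaling between libraries does not enter.

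Summed over the 21 Rgs genes, the family measured 1705 and 1279 RPKM (IL-33 libraries) and 2732 and 2771 RPKM (chronic HDM libraries). *Rgs1* made up 88.5% and 84.45% of this in the IL-33 libraries against 74.1% and 75.4% in those of chronic HDM, while *Rgs2* went from 1.87% and 1.95% to 16.4% and 15.8%. Without *Rgs1* the sum was 195 and 199 RPKM (IL-33 libraries) and 707 and 683 RPKM (chronic HDM libraries). Most of that gap was *Rgs2* itself.

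**Figure D2:**
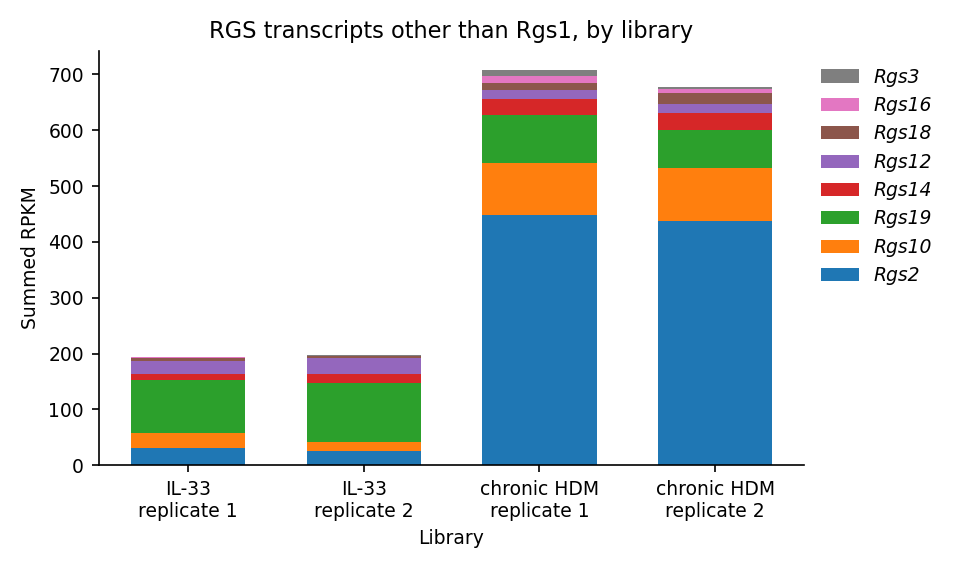
Summed RPKM of the RGS genes other than *Rgs1* that were tested, stacked by gene for each library. *Rgs2* is the largest block in both chronic HDM libraries, at 448 and 438 RPKM, and *Rgs19* in both IL-33 libraries, at 94.2 and 106 RPKM.

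Little of the remaining family was detected. Of the 13 other Rgs genes, 8 were at 0 in all libraries (*Rgs4*, *Rgs5*, *Rgs7*, *Rgs8*, *Rgs13*, *Rgs17*, *Rgs21* and *Rgs22*), and *Rgs6*, *Rgs9*, *Rgs11* and *Rgs20* were below the minimum for testing, with a highest value of 4.98 RPKM for *Rgs11* in chronic HDM replicate 2. Only *Rgs12*, a large R12 protein, was tested. It was at 24.4 and 27.7 RPKM (IL-33 libraries) and 15.7 and 14.9 RPKM (chronic HDM libraries; log2 difference 0.72, SE 0.28) and was not called (limma, adjusted p = 0.128). The R12 genes *Rgs12* and *Rgs10* thus lay on opposite sides, although neither was called.

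Chromosome 1 carries 11 of the 21 Rgs genes. *Rgs2*, *Rgs13*, *Rgs1*, *Rgs21* and *Rgs18* follow each other on the minus strand over 776 kb. Within this stretch *Rgs13* and *Rgs21* were at 0 in every library, while the 3 other genes were expressed. The nearest tested gene on each side of a member, within 500 kb, was taken as a comparison, and 10 such genes were not members. Of these 1 was higher after chronic HDM in both libraries, 4 were higher after IL-33 and 5 overlapped, with a median log2 difference of 0.62. Over all genes tested 23.5% were higher after chronic HDM and 41.7% after IL-33, so nothing is read from 10 genes.

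Called among the 10 neighbours were 2 genes, both higher after IL-33, where 2.8% of all genes tested were called in that direction. *Uchl5*, a deubiquitinase of the proteasome 192 kb from *Rgs2*, was at 89.9 ± 8.15 RPKM after IL-33 and 16.5 ± 1.29 RPKM after chronic HDM (SD, n = 2 each; log2 difference 2.38, SE 0.24, limma adjusted p = 0.00718). *Lman2*, a lectin of the secretory pathway 6.95 kb from *Rgs14*, was at 161 ± 2.25 and 44.6 ± 8.78 RPKM (log2 difference 1.84, SE 0.23, limma adjusted p = 0.00968). *Npl*, 191 kb from *Rgs16*, was the 1 neighbour with both libraries higher after chronic HDM, with 0 and 0.307 RPKM (IL-33 libraries) and 13.7 and 6.22 RPKM (chronic HDM libraries), and was not called (limma, adjusted p = 0.0207).

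Of the other proteins with an RGS or RGS-like domain, 10 of 14 were tested and 1 was called. *Grk2*, a kinase that phosphorylates activated receptors and binds Gαq through its RGS homology domain, was at 78.6 and 75.8 RPKM (IL-33 libraries) and 20.5 and 19.2 RPKM (chronic HDM libraries). Its log2 difference was 1.91 (SE 0.23, limma adjusted p = 0.00964), opposite to that of *Rgs2*. The call lay near the threshold and was kept under 7 of 16 alternatives, with adjusted p from 0.000816 to 0.309, and was lost when either IL-33 library was left out. Fits without chronic HDM replicate 1 or 2 leave the spread of that pair uncounted, so no number of calls is read from them for this list.

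On the log2(RPKM + 1) scale the largest difference in that list was that of *Arhgef1*, an exchange factor for RhoA that also deactivates Gα12 and Gα13. It was at 11.0 and 21.1 RPKM (IL-33 libraries) and 102 and 114 RPKM (chronic HDM libraries; log2 difference -2.74, SE 0.35) and just missed the threshold (limma, adjusted p = 0.0104). *Axin2*, a scaffold of the β-catenin destruction complex, was at 0.953 and 1.30 RPKM and then 7.77 and 12.2 RPKM (log2 difference -2.34, SE 0.47, limma adjusted p = 0.0264) and was not called. In RPKM itself *Axin2* differed more, 8.83-fold against 6.71-fold for *Arhgef1*. The other 7 tested, *Axin1*, *Akap10*, *Snx13*, *Snx14*, *Snx25*, *Arhgef11* and *Grk6*, had log2 differences from -0.58 to 1.502 and adjusted p from 0.238 to 0.999 (limma).

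The Gα subunits that RGS proteins act on were measured in the same libraries, and none of the 7 tested was called by limma or limma-voom (3 had an unadjusted p under 0.05 with limma). *Gnai3* was at 143 ± 1.46 RPKM after IL-33 and 66.9 ± 1.86 RPKM after chronic HDM (log2 difference 1.09, SE 0.19, limma adjusted p = 0.0181), and *Gnai2* at 70.8 ± 4.85 and 43.3 ± 4.28 RPKM (limma, adjusted p = 0.0828). Both encode Gαi proteins, the partners of most chemokine receptors, and each had both libraries higher after IL-33. *Gnai3* was called without either chronic HDM replicate 1 or replicate 2. *Gna15*, the main Gαq family transcript here, was at 44.5 ± 0.971 and 44.6 ± 2.52 RPKM (limma, log2 difference 0.00, SE 0.23), and *Gna11* was at 2.80 ± 1.003 and 3.18 ± 2.41 RPKM. *Gnas*, which encodes Gαs, was at 186 ± 19.97 and 143 ± 37.8 RPKM and *Gnal* at 6.58 ± 3.01 and 12.7 ± 2.23 RPKM. *Gna13*, the Gα12 family member tested, was at 52.2 ± 9.55 and 24.0 ± 5.06 RPKM (limma, adjusted p = 0.0526).

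Among Gβ and Gγ subunits, 4 of 5 and 6 of 12 genes were tested and none was called by limma or limma-voom (5 had an unadjusted p under 0.05 with limma). *Gnb1* was at 39.2 ± 2.17 RPKM after IL-33 and 76.0 ± 3.14 RPKM after chronic HDM (limma, adjusted p = 0.0371), whereas *Gnb2* was at 42.6 ± 10.4 and 19.1 ± 1.41 RPKM (limma, adjusted p = 0.0539). The 2 most abundant Gβ transcripts thus lay on opposite sides. *Gng5*, the most abundant Gγ transcript, was at 256 ± 34.1 and 365 ± 34.1 RPKM and *Gng10* at 70.9 ± 7.10 and 47.5 ± 5.53 RPKM (limma, adjusted p = 0.0998 and 0.138).

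No call was made by limma or limma-voom among arrestins, modulators and effectors, where 1, 1 and 4 genes had an unadjusted p under 0.05 with limma. The arrestins, which uncouple phosphorylated receptors, were at 29.5 ± 0.346 and 15.3 ± 2.67 RPKM for *Arrb2* and 2.98 ± 1.002 and 5.33 ± 3.87 RPKM for *Arrb1* (limma, adjusted p = 0.0810 and 0.560). Of 8 modulators of Gα, 5 were tested, led by *Ric8a*, a chaperone and exchange factor for Gα, and *Gpsm3*, a GoLoco protein, with log2 differences of -0.21 and 0.20. The gene of that list at an unadjusted p under 0.05 was *Gpsm2*, a GoLoco protein that orients the mitotic spindle, named after its values were seen, at 13.7 and 18.4 RPKM (IL-33 libraries) and 1.42 and 1.47 RPKM (chronic HDM libraries) with a limma adjusted p of 0.0130. Of 16 effectors 7 were tested, with a median log2 difference of -0.95. *Plcb3*, a phospholipase C activated by Gαq and Gβγ, was at 6.02 and 5.06 RPKM (IL-33 libraries) and 51.2 and 22.7 RPKM (chronic HDM libraries; log2 difference -2.43, SE 0.46, limma adjusted p = 0.0229), and the adenylyl cyclase *Adcy7* was at 13.6 ± 0.540 and 23.8 ± 2.78 RPKM (limma, adjusted p = 0.125).

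Receptors that couple to Gαi were the list with most calls, 4 of 15 tested, where 3.34% of all genes were called in either direction. With limma-voom 1 of the 4, *Ccr7*, was called, where 0.137% of all genes were. With median-of-ratios scaling or without 45S ribosomal RNA 2 receptors were called, where 1.28% of all genes were under each. Those called higher after IL-33 were *Ccr7*, a receptor for lymph node homing (209 ± 2.43 against 7.24 ± 1.67 RPKM, log2 difference 4.69, SE 0.26, limma adjusted p = 0.00497), *S1pr1*, the receptor for egress into lymph (59.5 ± 1.93 against 1.31 ± 0.817 RPKM, 4.75, SE 0.40, adjusted p = 0.00687), and *Ccr4* (59.7 ± 0.122 against 4.21 ± 1.40 RPKM, 3.57, SE 0.34, adjusted p = 0.00687). *Ccr9*, a receptor known for homing to the gut, was called higher after chronic HDM (0.811 ± 0.472 against 19.4 ± 2.04 RPKM, log2 difference -3.52, SE 0.44, limma adjusted p = 0.00994). The list as a whole had a median log2 difference of 0.21, close to that of all genes. Leaving out either IL-33 library ended these calls, as it ended every call in the fit over all genes. Over the 12 pathway lists, 57 genes were tested, of which 5 were called, 4 of them with IL-33 the higher and 1 with chronic HDM the higher, and 52 were not.

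**Figure D3:**
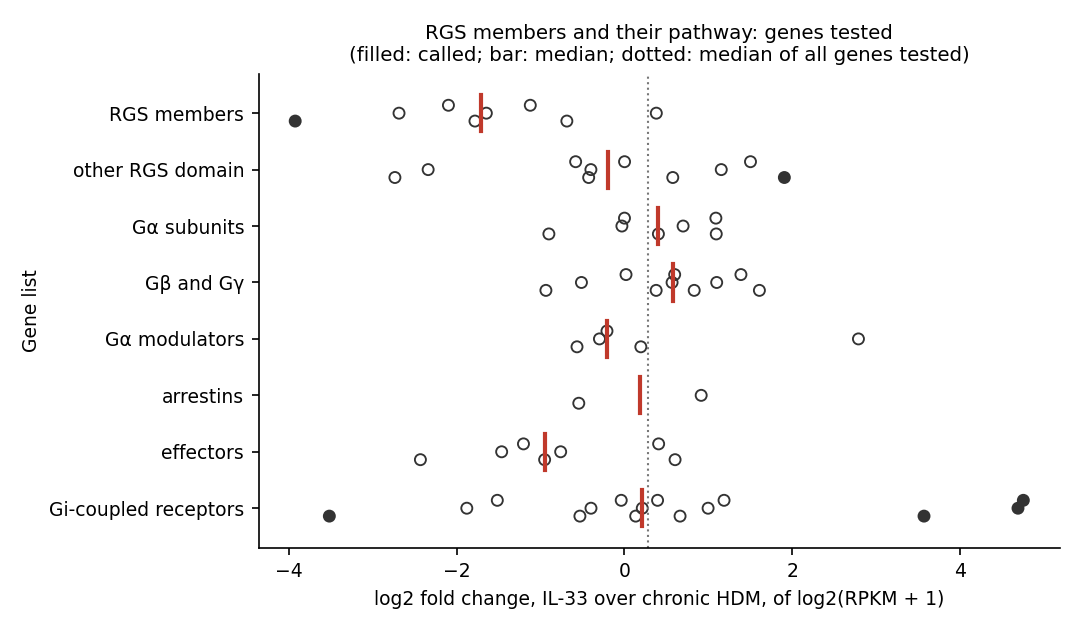
Log2 difference between IL-33 and chronic HDM, on log2(RPKM + 1), for each tested gene of the RGS members and of their pathway lists except *Rgs12* (circles, filled where called). Red bars mark list medians, and the overall median, 0.28, is dotted. The members have a median of -1.71, and the calls among receptors fall on both sides.

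Markers of other cell types were measured because RGS genes are expressed in many leukocytes. Macrophage markers had a larger summed level in the chronic HDM libraries, 1249 and 284 RPKM (IL-33 libraries) and 3109 and 8557 RPKM (chronic HDM libraries), most of it *Chil3* and *Lyz2*. Of the 8 of 9 tested, 5 had both libraries higher after chronic HDM, against 23.5% of all genes tested, and 3 overlapped. None was called by limma or limma-voom (4 had an unadjusted p under 0.05 with limma), whereas *Marco* was at 1.09 and 0 and then 0 and 3.51 RPKM. *Lyz2* was at 70.2 and 17.2 and then 933 and 2259 RPKM (limma, adjusted p = 0.0115). After IL-33, *Adgre1* was at 0 and 0.026 RPKM and *Mertk* at 0.13 and 0 RPKM. Between the chronic HDM libraries the macrophage sum differed 2.75-fold, with replicate 2 the higher, but *Adgre1* (9.25 and 3.43 RPKM) and *Mertk* (12.8 and 7.88 RPKM) were higher in replicate 1. Of the RGS genes, *Rgs18*, *Rgs14*, *Rgs1* and *Rgs10* were higher in replicate 2, by 1.59-fold, 1.10-fold, 1.03-fold and 1.002-fold. *Rgs3*, *Rgs16*, *Rgs19* and *Rgs2* were higher in replicate 1, by 2.19-fold, 1.85-fold, 1.27-fold and 1.02-fold. The part of macrophage RNA in the level of any of the 8 genes was not tested. Fewer cells expressing a gene and less RNA per cell cannot be told apart in these bulk libraries.

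Markers of other cell types summed to less. T cell markers summed to 71.6 to 104 RPKM over the libraries, nearly all of it *Cd3g*, with *Cd4*, *Cd8a* and *Cd5* at 0 throughout, and B cell markers summed to 27.8 to 39.1 RPKM after IL-33 and 6.82 to 8.74 RPKM after chronic HDM, nearly all *Cd79b*, with *Ms4a1* and *Pax5* at 0. Dendritic cell markers summed to 22.0 and 28.6 RPKM and then 53.6 and 83.1 RPKM, led by *Itgae*. The means of *Itgae* were 15.6 RPKM after IL-33 and 58.7 RPKM after chronic HDM. Of the 3 tested, *Itgae* and *Itgax* had both libraries higher after chronic HDM, and *Xcr1* had both higher after IL-33. *Xcr1* was at 6.42 and 6.16 RPKM (IL-33 libraries) and 3.66 and 2.38 RPKM (chronic HDM libraries). *Zbtb46*, below the minimum for testing, was also higher after IL-33, and *Cd209a* was at 0 throughout. Neutrophil markers, led by *S100a8*, summed to at most 0.566 RPKM in the IL-33 libraries and to 14.1 and 11.2 RPKM in those of chronic HDM, and *S100a9* and *Csf3r* were at 0. Eosinophil markers, led by *Ccr3*, summed to 2.22 to 7.46 RPKM. NK cell markers, nearly all *Gzma*, ranged from 0 to 63.5 RPKM within the chronic HDM pair, and epithelial markers summed to 2.65 to 76.0 RPKM. *Scgb1a1* made up most of the epithelial sum in chronic HDM replicate 2 (64.6 RPKM) and was at 0 in replicate 1, while *Epcam* was at 3.65 and 1.91 RPKM (IL-33 libraries) and 21.5 and 9.07 RPKM (chronic HDM libraries) and was not called (limma, adjusted p = 0.0563). Basophil and mast cell markers summed to 52.2 and 43.1 RPKM (IL-33 libraries) and 0 and 2.87 RPKM (chronic HDM libraries). Their leading gene, the protease *Mcpt8*, was at 45.8 and 39.2 RPKM after IL-33 and at 0 in both chronic HDM libraries. It was the 1 marker of another cell type that was called (limma, adjusted p = 0.00665), and limma-voom did not call it. *Fcer1a*, below the minimum for testing, was at 4.12 and 2.17 RPKM after IL-33 and at 0 after chronic HDM. *Cpa3* overlapped, at 2.23 and 1.72 RPKM (IL-33 libraries) and 0 and 2.87 RPKM (chronic HDM libraries), and *Ms4a2*, *Prss34* and *Tpsb2* were at 0 throughout. The part of these cells in the RGS levels was not tested.

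For each gene the tested gene with the smallest Euclidean distance over the 4 libraries, on log2(RPKM + 1), was sought among 8953 named genes. *Rgs2* was nearest to *Dusp1*, a phosphatase that inactivates MAP kinases, at 23.6 and 40.0 RPKM (IL-33 libraries) and 353 and 275 RPKM (chronic HDM libraries) (distance 1.08). That was the largest of the 8 distances, so no gene followed *Rgs2* as closely as was found for the other members. *Rgs1* was nearest to the translation factor gene *Eef1a1* (0.50), *Rgs10* to the small nucleolar RNA host gene *Snhg3* (0.49) and *Rgs19* to the zinc transporter gene *Slc39a7* (0.16). *Rgs14* was nearest to *Anks3* (0.20), *Rgs3* to *Samd8* (0.36), *Rgs16* to *Zfp420* (0.51) and *Rgs18* to *Abhd17a* (0.48). With 4 libraries such likeness is a description of level and step only.

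**Figure D4:**
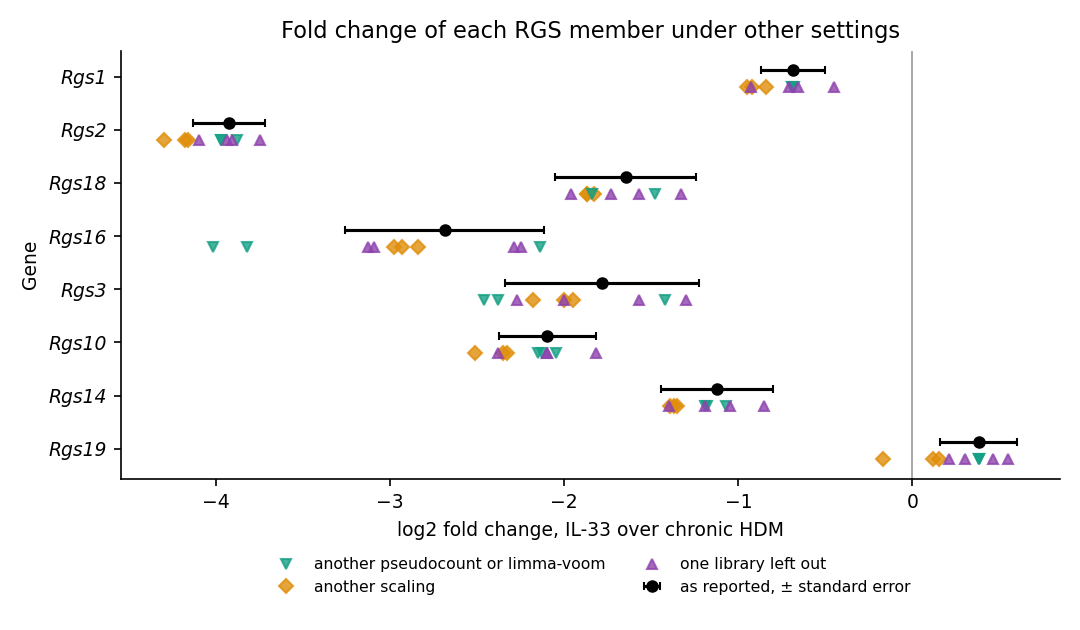
Log2 difference, IL-33 minus chronic HDM, of each RGS gene as reported, with its standard error (black), and under other scalings, other pseudocounts or limma-voom, and with each library left out. *Rgs2* stays between -4.30 and -3.75, and *Rgs19* crosses 0 under quantile normalization, at -0.17.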

How the data were processed

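The authors prepared Smart-seq2 libraries without molecular identifiers, aligned reads with HISAT2 (to mm10; the submitters' processing notes give version 2.0.4) and deposited RPKM per gene, counted by HOMER over exons of 1 RefSeq transcript per gene and normalized to 10000000 reads, per the file headers. In each library 99.8% to 100% of low values lay within 0.1 of a whole read, which gave the depth. At 3 reads, counting limits a 1 kb transcript to 0.156 to 0.255 RPKM, which covers counting error only.

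Deposited values were tested as log2(RPKM + 1) with limma 3.58.1 (R 4.3.3; intensity trend, two-sided, Benjamini-Hochberg) over 9523 genes (mean RPKM 2 or more); called genes had an adjusted p under 0.01 and a log2 difference beyond 1. The procedure was tested on simulated data. An exact permutation of 2 against 2 libraries cannot give a p below 0.333.

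The members and lists were chosen with earlier results of these data known. Named are all members, tested RGS-domain genes, called list genes or else the 2 most abundant, neighbours within 500 kb (in part), the most similar genes and the leading markers. *Trac* and *Trbc1* were not matched. Alternatives covered pseudocount, minimum, scaling, variance model, recovered reads, replicate block, threshold and each library left out. Promoters came from RefSeq (GRCm38.p6), exons from GENCODE M21. Figures used matplotlib 3.10.9.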

Additional observations from a re-analysis of the deposited data

How the results depend on the processing

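The alternatives (16, or 15 for *Rgs3* and *Rgs16*) could not all turn a direction. The minimum, variance model, replicate block and threshold leave a difference as it is. Where libraries of the groups do not overlap, another pseudocount or a library left out cannot reverse it. Nor can limma-voom, which takes a weighted mean within each group. Median-of-ratios scaling and scaling without 45S ribosomal RNA multiply each library by a single factor. They moved the median of all genes toward chronic HDM, so they could turn only a gene higher after IL-33. Quantile normalization could turn any gene, and under it 7 of the 8 RGS genes kept their direction. Nothing is read from the directions kept under the other settings. *Rgs19* reversed under quantile normalization (-0.17). Of 126 member values 114 moved by less than the replicate spread, which was in large part fixed beforehand. That count includes settings that leave a difference as it is. It also includes fits with a library left out, whose shift cannot exceed that spread. The 11 values that moved further and the 1 that reversed came from other scalings, a pseudocount of 0.1 or limma-voom. *Rgs2* ranged from -4.30 to -3.75, and *Rgs16* ranged from -4.02 to -2.14. The numbers of genes called higher after IL-33 and after chronic HDM (267 and 51 as reported) were 0 and 0 with limma at a pseudocount of 0.1, with no minimum and without the trend (3277, 4013 and 3327 genes at an unadjusted p under 0.05, against 3499). They were 639 and 152 at a minimum of 10 RPKM, where *Rgs3* and *Rgs16* dropped out, 148 and 119 with quantile normalization, 82 and 40 with median-of-ratios scaling, 84 and 38 without 45S ribosomal RNA, 11 and 2 with limma-voom on recovered reads, and 1311 and 455 at an adjusted p under 0.05. These 3 scalings moved the median of all genes by -0.298, -0.240 and -0.217 on the log2 scale. With 1 library left out, where the lone sample is taken to vary as the other pair does, the counts ranged from 0 to 1872 and from 0 to 598. They were 0 without IL-33 replicate 1 or 2 (1352 and 1443 genes at an unadjusted p under 0.05), where only the chronic HDM pair is left to give the spread, 1556 and 385 without chronic HDM replicate 1, and 1872 and 598 without chronic HDM replicate 2. With the replicate block the counts were 987 and 267. The deviations of same-numbered libraries correlated at -0.038. With 2 libraries a group this is a single value, which cannot decide whether the numbers pair the libraries. With 2 libraries a group, calls rest on few residual degrees of freedom, and low genes such as *Rgs16*, with 7 reads in IL-33 replicate 2, have uncertain folds.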
